A study of Bos taurus with 31 samples.

Results

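The collagen chain genes of the bovine liver were examined in 31 lactating German Holstein cows that had been fed 4 rations for 16 weeks. The genes were chosen by symbol alone, as the rows of the gene count table whose symbol reads COL, a number, A and a number. This gave 40 of the 24616 genes in the table. The lipid transfer gene COL4A3BP, whose symbol only begins in the same way, was not taken in.

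Liver was obtained by puncture biopsy in week 16, and polyadenylated RNA was sequenced with a strand-marking kit. CONHC and CONLC cows received a control ration and GLYHC and GLYLC cows a ration contaminated with glyphosate, the active substance of non-selective herbicides, through feed from plants sprayed with a glyphosate product before harvest. Concentrate made up 60% of dry matter in the HC groups and 30% in the LC groups. CONHC, CONLC and GLYHC held 8 cows each and GLYLC 7, because samples of a GLYLC cow were lost. Each library was from a different animal. All groups shared breed, adaptation ration, biopsy method and sequencing protocol, and exposure came through the feed, so the GLY groups received residues of a formulated product and not a fixed dose of the pure substance. The comparisons addressed whether glyphosate residues and the concentrate feed proportion altered hepatic gene expression.

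Collagens are extracellular proteins built from chains that wind into a triple helix, and each chain has its own gene. Fibrillar collagens (types I, III and V and their relatives) form the cables of the capsule and portal tracts and of scar tissue, network collagens (type IV) line basement membranes, and the beaded filaments of type VI and the fibril-associated collagens connect fibrils with cells and other matrix. In liver the fibrillar chains are made mainly by stellate cells and portal fibroblasts, whereas type XVIII, a proteoglycan of basement membrane zones, is made largely by hepatocytes. The 40 genes comprised 10 fibrillar, 6 basement membrane, 4 beaded filament, 8 fibril-associated, 2 multiplexin, 4 transmembrane and 3 hexagonal network chains, and 3 anchoring or other chains.

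The libraries held 11675775 to 36675542 reads assigned to genes. Of the 40 collagen genes, 35 had at least 20 reads summed over the cows and were tested among 15916 genes. The 5 that did not were COL8A2 with 19 reads, COL9A1 with 10 and COL9A2 with 3, and COL10A1 and COL25A1 with none. Levels are given as normalised read counts, that is reads scaled to the mean effective library by trimmed mean of M-values (TMM), and fold changes as log2 values with standard errors (SE) from the quasi-likelihood test of edgeR. A call needed both p below 0.05 and a Benjamini-Hochberg adjusted p below 0.1, the adjustment running over all genes tested. Because longer transcripts give more reads, counts of different chains were not ranked as levels.

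No collagen gene was called in any comparison of the 4 groups. What varied most was the individual cow: the interstitial chains COL1A1, COL1A2 and COL3A1 of CONLC cow 103 were 72.5-fold, 69.2-fold and 12.1-fold the median of the other CONLC cows, and much of the apparent difference between HC and LC rested on this library. CONLC cow 166 also stood apart, and GLYLC cow 912 did so for COL15A1, at 27.3-fold the median of the other GLYLC cows. The results are therefore given with all cows, without cow 103, and without these 3 cows. Cow 912 was more than 2-fold over its group for only 4 of 35 tested collagen genes. GLYLC cow 544, with 10 such genes, and CONLC cow 941, with 5, stayed in the fit without the 3 cows. The 3 cows were singled out after their values had been seen.

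Collagen genes took 0.0957% of the assigned reads in the median cow, with a range from 0.0615% to 0.321%. The multiplexins, nearly all COL18A1, supplied 66.1% of these collagen reads in the median cow, the fibrillar chains 13.8%, the basement membrane chains 8.51%, the beaded filament chains 5.23% and the fibril-associated chains 3.85%. In cow 103 the order was turned round, with 68.7% fibrillar and 16.1% multiplexin reads, and it was in this cow that the total reached 0.321%. The next highest total in CONLC was 0.130%. Among the other groups the total spanned 0.0806% to 0.110% in CONHC, 0.0811% to 0.119% in GLYHC and 0.0615% to 0.118% in GLYLC, ranges that overlapped throughout.

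**Figure D1:**
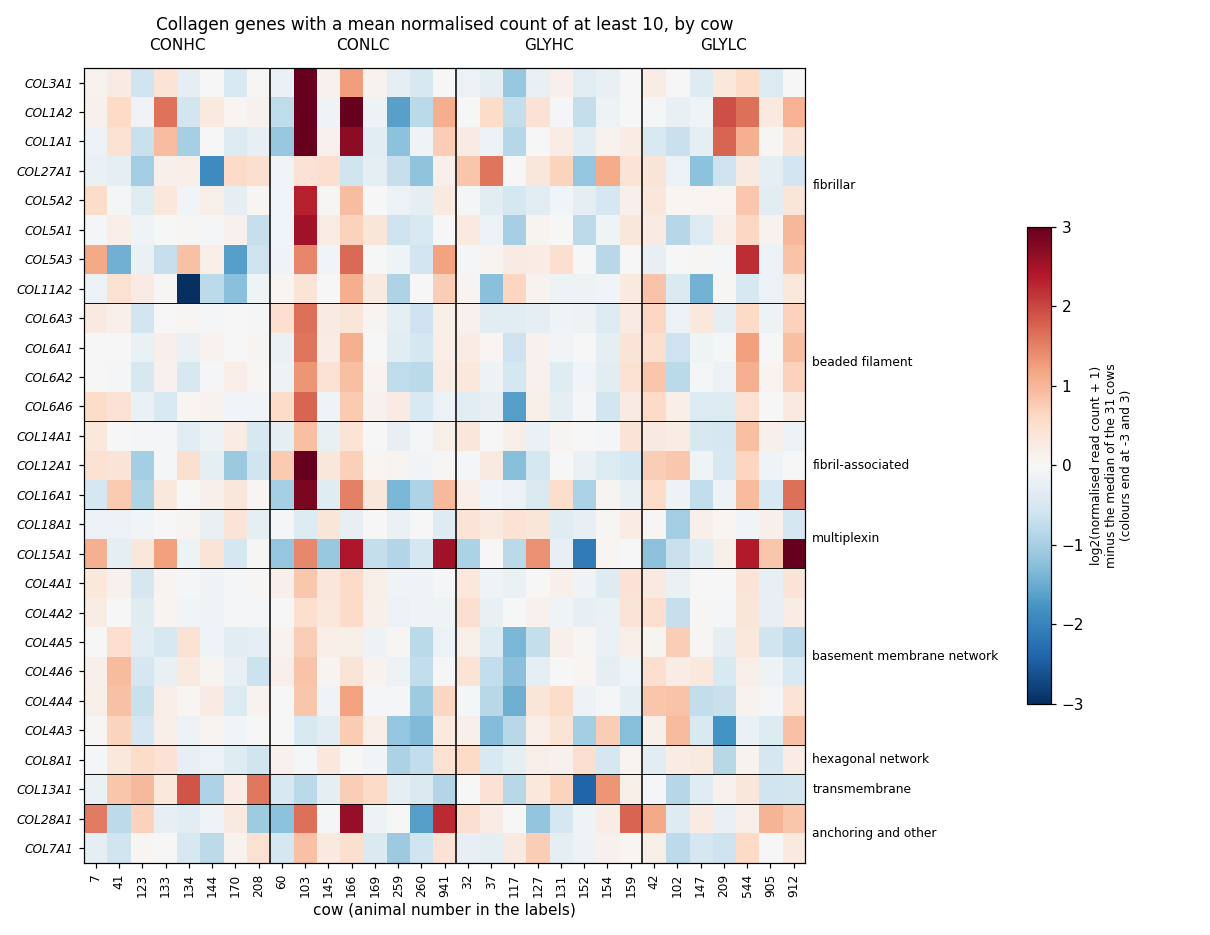
Each row is a collagen gene with a mean normalised count of at least 10 (27 genes, grouped by class), each column a cow, and the colour is log2 of the normalised read count plus 1, minus the median of the 31 cows. The dark red column of CONLC cow 103 runs through most of the fibrillar, beaded filament and fibril-associated genes, with weaker columns in CONLC cow 166 and GLYLC cow 544, whereas COL18A1, COL4A1, COL4A2 and COL8A1 stay pale across all groups.

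COL1A1 (ENSBTAG00000013103) and COL1A2 (ENSBTAG00000013472) encode the chains of type I collagen, the main protein of scar fibrils. COL1A1 was measured at 68.2 to 259 normalised counts in CONHC (median 117), 74.3 to 163 in GLYHC (median 141), 85.5 to 461 in GLYLC (median 140) and 57.3 to 9027 in CONLC (median 137). The 4 medians lay close together, and the upper end of CONLC was set by cow 103 at 9027 and cow 166 at 882. The other CONLC cows lay at or below 228.

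COL1A2 behaved alike, with 118 to 541 in CONHC (median 190), 105 to 253 in GLYHC (median 169), 148 to 663 in GLYLC (median 214) and 55.7 to 10852 in CONLC (median 159). Cow 103 again held the highest value and cow 166, at 1376, the second highest. COL3A1 (ENSBTAG00000021466), the chain of the reticulin fibres that support the sinusoids, spanned 1146 to 2307 in CONHC (median 1758), 783 to 1936 in GLYHC (median 1489), 1301 to 2540 in GLYLC (median 1752) and 1240 to 20972 in CONLC (median 1797). All groups overlapped for these 3 genes.

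The type V chains, which seed and limit fibril growth, followed the same cow. COL5A2 lay between 152 and 414 in all cows but cow 103, where it was 1100, and COL5A1 between 31.2 and 128 except for 370 in cow 103. Their medians by group were 220, 220, 177 and 228 for COL5A2 and 62.0, 68.6, 60.5 and 72.3 for COL5A1, in the order CONHC, CONLC, GLYHC and GLYLC. COL5A3 was highest in GLYLC cow 544 at 120, ahead of cow 166 at 83.5, and its group medians were between 18.8 in CONHC and 26 in GLYHC.

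COL27A1, a fibrillar chain known chiefly from cartilage, differed from the rest of its class in having its highest values in GLYHC. Counts were 99.5 to 548 in CONHC (median 366), 158 to 526 in CONLC (median 324), 165 to 1121 in GLYHC (median 538) and 156 to 479 in GLYLC (median 302). The groups overlapped, although the mean of GLYHC was 581 ± 289 (SD, n = 8) against 314 ± 115 (SD, n = 7) in GLYLC and 350 ± 156 (SD, n = 8) in CONHC. COL2A1, the cartilage collagen, had no read in the 16 HC cows and 42 reads in 3 LC cows, of which all but 5 were in CONLC cow 941. With 3 reads over the HC cows as the floor, the mean count was at least 12.3-fold higher in LC than in HC, and at least 1.48-fold without cow 941. These ratios do not take in the spread between cows and bound no difference between the rations. Without cow 941 the gene had 5 reads, under the filter of 20. COL11A1 and COL11A2, also fibrillar, did not exceed 22.9 normalised counts in any cow.

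**Figure D2:**
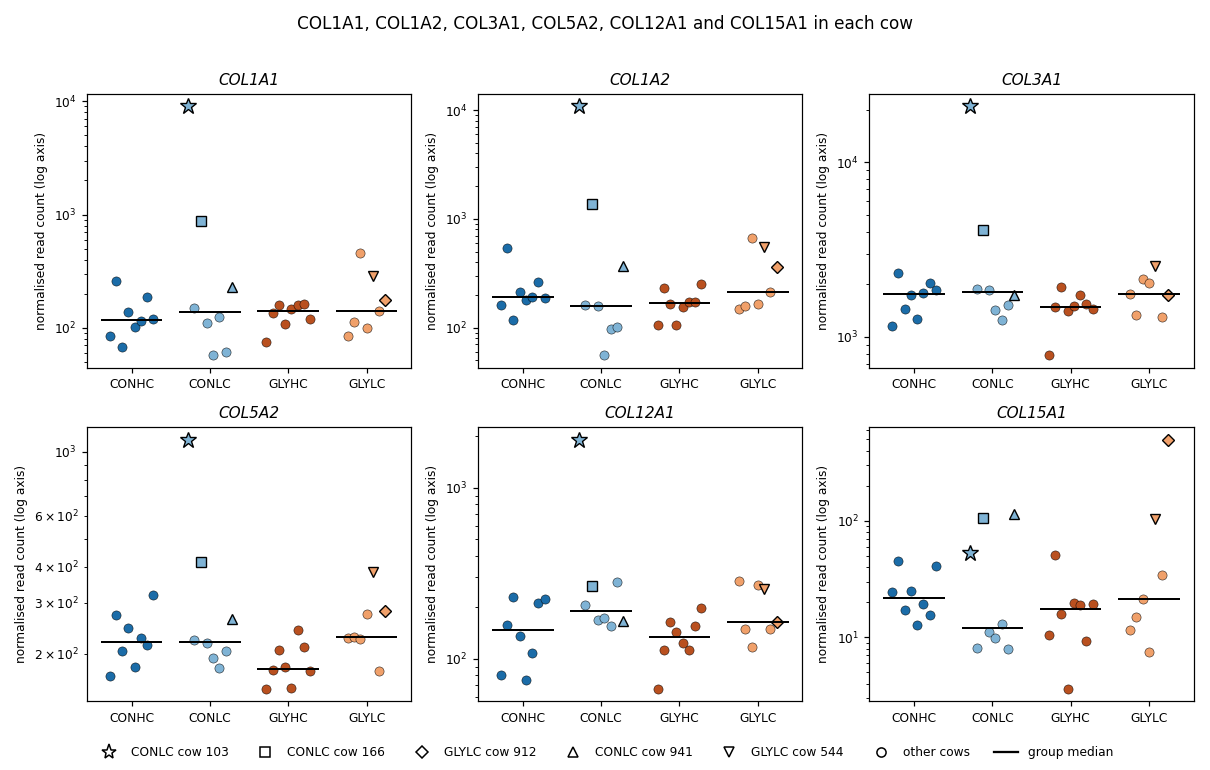
Normalised read counts of 6 collagen genes in each cow by group, on log axes, with the group median as a line and the 5 cows named in the legend drawn as other symbols. CONLC cow 103 lies far above every other cow for COL1A1, COL1A2, COL3A1, COL5A2 and COL12A1, GLYLC cow 912 is highest for COL15A1 at 497, and the medians of the 4 groups lie close together.

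Among the fibril-associated chains, which sit on fibril surfaces, COL12A1 and COL14A1 gave the most reads. COL12A1 reached 1915 in cow 103 and at most 287 elsewhere, with medians of 146 in CONHC, 190 in CONLC, 133 in GLYHC and 163 in GLYLC. The lowest COL12A1 value was 155 in CONLC, 118 in GLYLC, 75.1 in CONHC and 66.9 in GLYHC. COL14A1 was steadier, with medians of 551, 568, 590 and 634 in the same order and maxima of 1065 in cow 103 and 1063 in GLYLC cow 544. COL16A1 was 138 in cow 103 and at most 60.8 in the others.

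The type VI chains, which form beaded filaments around cells, were spread less. COL6A3 lay between 273 and 678 in all cows except cow 103 at 1324, with medians of 416 in CONHC, 482 in CONLC, 363 in GLYHC and 522 in GLYLC. COL6A1 was 206 to 745 outside cow 103, where it was 981, and COL6A2 was 117 to 428 outside cow 103, where it was 509. The second highest cow for both was GLYLC cow 544. COL6A6 was 341 in cow 103 and at most 175 elsewhere.

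The basement membrane chains COL4A1 and COL4A2, which assemble into the common type IV network, were among the steadiest collagen genes. COL4A1 spanned 522 to 914 in CONHC (median 741), 680 to 1303 in CONLC (median 827), 567 to 1003 in GLYHC (median 705) and 627 to 970 in GLYLC (median 739). COL4A2 spanned 438 to 655, 493 to 832, 470 to 780 and 346 to 790, with medians of 539, 595, 535 and 579. Their biological coefficient of variation (BCV, the spread between cows beyond counting noise) was 0.20 for each, against 0.94 for COL1A1, 0.95 for COL1A2, a median of 0.46 over the collagen genes and 0.22 over all genes tested. Without cow 103 the value for COL1A1 was 0.58, and without the 3 cows it was 0.44. The other type IV chains, COL4A3 to COL4A6, ranged from 4.90 to 376 normalised counts.

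COL18A1 (ENSBTAG00000023907), the multiplexin from which the antiangiogenic fragment endostatin is cut, was measured at 10848 to 17418 in CONHC (median 12291), 10011 to 17189 in CONLC (median 12281), 10394 to 17955 in GLYHC (median 16105) and 6458 to 14912 in GLYLC (median 13819). Cow 103 was the lowest of the CONLC cows for this gene, opposite to its place for type I. COL15A1, the other multiplexin, had medians of 21.9 in CONHC, 12 in CONLC, 17.4 in GLYHC and 21.5 in GLYLC but reached 497 in GLYLC cow 912, 114 in CONLC cow 941, 106 in CONLC cow 166 and 103 in GLYLC cow 544. No HC cow exceeded 50.7.

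COL8A1, a short-chain network collagen of vessel walls, showed 287 to 640 in CONHC (median 402), 224 to 592 in CONLC (median 425), 306 to 652 in GLYHC (median 465) and 243 to 526 in GLYLC (median 465). COL13A1, a transmembrane collagen of cell adhesion sites, had lower medians in LC than in HC, with 6.91 to 54.2 in CONHC (median 21.6), 7.08 to 23.7 in CONLC (median 10.6), 1.81 to 36.6 in GLYHC (median 16.8) and 7.30 to 17.9 in GLYLC (median 10.7). The groups still overlapped. COL7A1, COL9A3, COL17A1, COL20A1, COL22A1, COL23A1, COL26A1 and COL28A1 were at or below 115 in every cow.

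**Figure D3:**
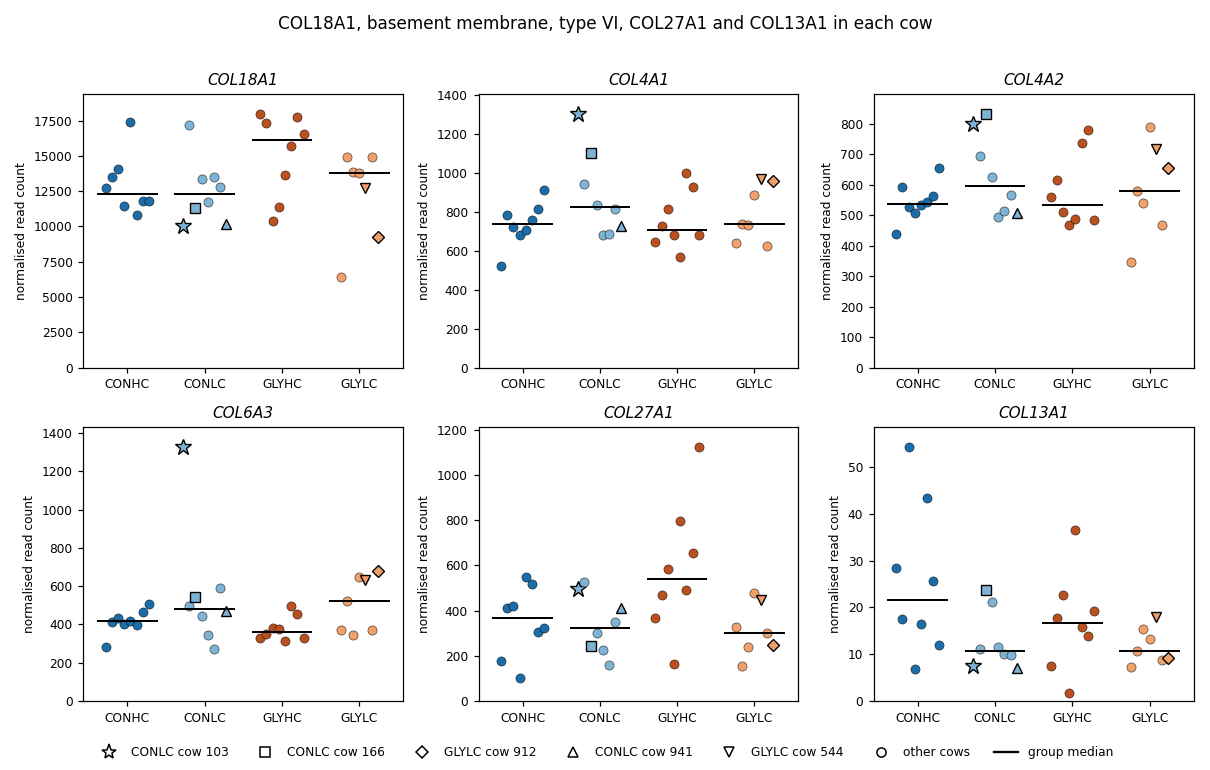
Normalised read counts of 6 further collagen genes in each cow by group, on linear axes starting at 0, with the group median as a line. COL18A1, COL4A1 and COL4A2 overlap between all groups, CONLC cow 103 stands alone for COL6A3 at 1324, COL27A1 has its highest value of 1121 in GLYHC, and the highest COL13A1 values of 54.2 and 43.5 are in CONHC.

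Averaged over the treatments, HC against LC was the comparison with the most differences in the table, 231 called genes or 1.45% of those tested. None was a collagen gene. At an unadjusted p below 0.05, 14 of the 35 collagen genes were lower in HC, against 7.81% of all genes, and 1 was higher, against 5.88%. The median log2 fold change was -0.41 over the collagen genes and -0.01 over all genes, and 29 of the 35 values were below 0, against 54% of all genes. Since chains that share cows move together, these counts describe the list and are not independent of each other. In a bulk biopsy, fewer cells of a type and less RNA per cell cannot be told apart.

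By class, the unadjusted threshold was passed by 7 of 10 fibrillar, 4 of 4 beaded filament and 2 of 6 fibril-associated genes and by COL15A1, all lower in HC, and by COL13A1 as the gene higher in HC. The 7 fibrillar genes include COL2A1, which met the read filter only through CONLC cow 941. These counts are with all cows. Without cow 103 the fibrillar count was 4 lower, COL2A1 among them, and 1 higher of 9. Of the type VI genes only COL6A3 then still passed. None of the 6 basement membrane genes passed the threshold with all cows, and their values ran from -0.26 to -0.04. The log2 fold change was -2.01 ± 0.65 (SE) for COL1A1 (edgeR adjusted p = 0.142), -1.92 ± 0.59 for COL1A2 (edgeR adjusted p = 0.124) and -0.86 ± 0.32 for COL3A1 (edgeR adjusted p = 0.208). COL12A1 had -1.02 ± 0.31 (edgeR adjusted p = 0.126) and COL15A1 -1.52 ± 0.54 (edgeR adjusted p = 0.187). None of these reached the threshold.

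Leaving out cow 103 took the median log2 fold change of the collagen genes to -0.26 and the genes at an unadjusted p below 0.05 to 7 lower and 2 higher of 34, beside 7.34% and 5.71% of all genes. COL1A1 then had -0.67 ± 0.31 and COL1A2 -0.72 ± 0.34. Without the 3 cows the counts were 2 lower and 1 higher of 32, beside 5.65% and 6.55% of all genes, the median was -0.11, and COL1A1 had -0.23 ± 0.25.

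COL12A1 came nearer to 0 without cow 103 and then held, at -0.48 ± 0.17 without this cow and -0.46 ± 0.18 without the 3 cows. COL13A1 moved little, with 0.78 ± 0.28, 0.73 ± 0.28 and 0.80 ± 0.29 with all cows, without cow 103 and without the 3 cows. The adjusted p of both genes by edgeR stayed above 0.1 in each of these fits. COL15A1 went from -1.52 ± 0.54 to -0.43 ± 0.42 once the 3 cows were left out. For the steady chains the fold changes were near 0, at 0.17 ± 0.11 for COL18A1, -0.17 ± 0.10 for COL4A1, -0.11 ± 0.10 for COL4A2, -0.11 ± 0.12 for COL14A1 and 0.12 ± 0.14 for COL8A1.

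COL2A1, whose ratio is given above, was also among the genes past the unadjusted threshold, with no read in HC and nearly all of its reads in CONLC cow 941. The remaining 8 had log2 fold changes between -0.72 and -0.39 with all cows. COL6A3 had -0.43 ± 0.15, COL6A1 -0.41 ± 0.18, COL6A2 -0.39 ± 0.18 and COL6A6 -0.41 ± 0.18. COL5A2 had -0.53 ± 0.19, COL5A1 -0.56 ± 0.24, COL5A3 -0.66 ± 0.29 and COL16A1 -0.72 ± 0.33. Each was nearer to 0 without cow 103, and COL16A1 was at 0.02 ± 0.24 without the 3 cows.

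**Figure D4:**
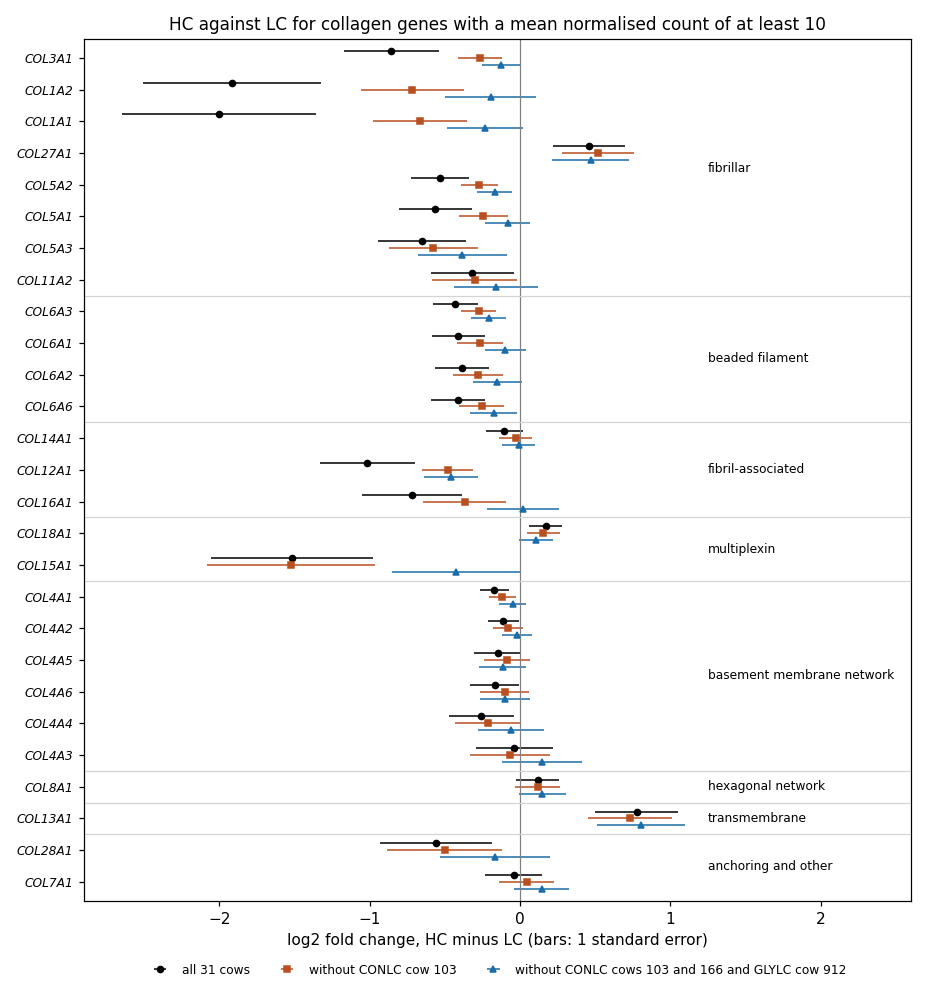
Log2 fold change of HC against LC with 1 standard error for the 27 collagen genes with a mean normalised count of at least 10, grouped by class, with all 31 cows (circles), without CONLC cow 103 (squares) and without CONLC cows 103 and 166 and GLYLC cow 912 (triangles). The type I values move from -2.01 and -1.92 towards 0 as cows are left out, while COL12A1, COL13A1 and COL27A1 hold their place after cow 103 is removed.

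Within the control ration, CONHC against CONLC gave 7 collagen genes lower and 1 higher at an unadjusted p below 0.05, beside 3.25% and 2.71% of all genes, and no gene of the table was called (0%). COL1A1 had -3.30 ± 0.80 (edgeR adjusted p = 0.253), COL1A2 -2.82 ± 0.78, COL12A1 -1.44 ± 0.43, COL3A1 -1.36 ± 0.42, COL5A1 -0.77 ± 0.34 and COL5A2 -0.61 ± 0.27, with COL2A1 as the 7th gene and COL13A1 higher at 0.99 ± 0.39. Without cow 103 the counts were 1 and 1 of 34, namely COL2A1 lower and COL13A1 higher, beside 2.81% and 2.31% of all genes. All 37 COL2A1 reads of these 2 groups were in cow 941, and DESeq2, which replaced that count, gave 0.33. Without cow 103 COL1A1 had -0.78, COL1A2 -0.52, COL12A1 -0.41 and COL3A1 -0.22, and without the 3 cows COL1A1 at 0.14, COL1A2 at 0.56 and COL3A1 at 0.07 were above 0. Of these 2 groups, the last fit leaves out CONLC cows only.

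Within the glyphosate ration, GLYHC against GLYLC called 32 genes or 0.201% of the table, none of them a collagen gene. COL15A1 had -2.35 ± 0.74 (edgeR adjusted p = 0.201) and COL27A1 0.89 ± 0.33 (edgeR adjusted p = 0.253), which were the 1 lower and 1 higher collagen gene at an unadjusted p below 0.05, beside 7.45% and 5.06% of all genes. The value for COL15A1 rested on cow 912, without which it was -0.73 and no longer below 0.05 unadjusted. The value for COL27A1 was between 0.69 and 1.04 whichever cow was left out. Leaving out cow 103, which is in neither group but enters the common estimate of spread, gave 4 lower and 1 higher of 34, beside 7.46% and 4.96% of all genes, with COL12A1, COL5A2 and COL6A3 joining COL15A1.

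GLY against CON, averaged over the concentrate proportions, called no gene of the table (0%). In the collagen list 3 genes were at an unadjusted p below 0.05, all lower in GLY, beside 1.45% of all genes lower and 2.48% higher. They were COL1A2 at -1.38 ± 0.59, COL1A1 at -1.37 ± 0.65 and COL3A1 at -0.70 ± 0.32, each with an edgeR adjusted p of 1. Without cow 103 no collagen gene was below 0.05, beside 3.58% of all genes, and the same genes had -0.25 ± 0.34, -0.12 ± 0.31 and -0.15 ± 0.15. COL18A1 at 0.10 ± 0.11, COL4A1 at -0.06 ± 0.10 and COL6A3 at -0.14 ± 0.15 lay within their standard error of 0 with all cows.

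At high concentrate, GLYHC against CONHC had COL27A1 as the only collagen gene at an unadjusted p below 0.05, higher at 0.74 ± 0.32 (edgeR adjusted p = 1), beside 1.6% of all genes higher and 1.31% lower, and no gene was called (0%). Without GLYHC cow 37 it was 0.54 and no longer below 0.05. At low concentrate, GLYLC against CONLC called 0.0628% of all genes, none a collagen gene. At an unadjusted p below 0.05 it had 4 collagen genes, all lower, beside 1.94% of all genes lower and 3.71% higher, namely COL1A1 at -2.76 ± 0.81, COL1A2 at -2.35 ± 0.80, COL3A1 at -1.24 ± 0.44 and COL12A1 at -1.06 ± 0.44. Without cow 103 the 4 values were -0.24, -0.05, -0.10 and -0.03, and no collagen gene was below 0.05, beside 4.99% of all genes. All 4 were above 0 without the 3 cows, at 0.70, 1.0, 0.20 and 0.08. That fit leaves out CONLC cows 103 and 166, the highest of all cows for COL1A1, COL1A2 and COL3A1. The turned signs are therefore no separate evidence. The comparisons with CONLC share its 8 cows, so CONHC against CONLC and GLYLC against CONLC hold the same values of cow 103 and are not separate evidence.

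The interaction of treatment and concentrate proportion, which asks whether the difference between HC and LC depended on the ration, had COL1A1 as the 1 collagen gene below 0.05 unadjusted, at 2.75 ± 1.09 (edgeR adjusted p = 0.999), beside 1.9% of all genes in that direction and 2.31% in the other, and no gene was called (0%). Without cow 103 it was 0.24 with a p of 0.712 by edgeR. For COL27A1 the interaction was 0.85 ± 0.46 (edgeR adjusted p = 0.999). The higher value in GLYHC is thus not shown to depend on both factors together.

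Chains of the same protein went together from cow to cow. Over 31 cows COL1A1 and COL1A2 had a Pearson r of 0.965 and a Spearman rho of 0.811 on log2 CPM (counts scaled by library size), and COL4A1 and COL4A2 0.861 and 0.909. For COL6A1 and COL6A2 the values were 0.940 and 0.943. Each of these 6 values had a permutation p of 1e-05, the smallest that 100000 resamples can give, with Benjamini-Hochberg values of 1.71e-05 over 12 tests. Leaving out the 2 cows farthest from the median left r at 0.881, 0.832 and 0.920. Within groups r for COL1A1 and COL1A2 was 0.961 in CONHC, 0.988 in CONLC and 0.975 in GLYLC but 0.546 in GLYHC (exact permutation p = 0.159).

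The relations of COL1A1 with COL4A1, COL14A1 and COL3A1 were weaker once cows 103 and 166 were left out. COL1A1 and COL4A1 had an r of 0.641 and a rho of 0.527 (permutation p = 0.00014 and 0.00268), which became 0.330 and 0.422 without cows 103 and 166 (permutation p = 0.0796 and 0.0238), so that r no longer passed 0.05 and rho did. COL1A1 and COL14A1 had an r of 0.520 and a rho of 0.307 (permutation p = 0.00474 and 0.0918), and 0.166 and 0.155 without these cows (permutation p = 0.384 and 0.425). COL1A1 and COL3A1 had 0.920 and 0.654, and 0.620 and 0.577 without them.

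The proportions of chains were also compared. COL1A1 reads per COL1A2 read had a median of 0.653 and ranged from 0.475 to 1.27, and cow 103 at 0.832 lay within that range. The group medians were 0.589 in CONHC, 0.765 in CONLC, 0.926 in GLYHC and 0.601 in GLYLC. The highest value was 0.708 in CONHC and 0.716 in GLYLC, against 1.27 in CONLC and 1.03 in GLYHC. The ranges overlapped, and a difference between the groups was not tested. COL1A1 reads per COL3A1 read had a median of 0.0851, whereas cow 103 reached 0.430, the highest of all cows. COL4A1 reads per COL4A2 read stayed between 1.12 and 1.86.

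**Figure D5:**
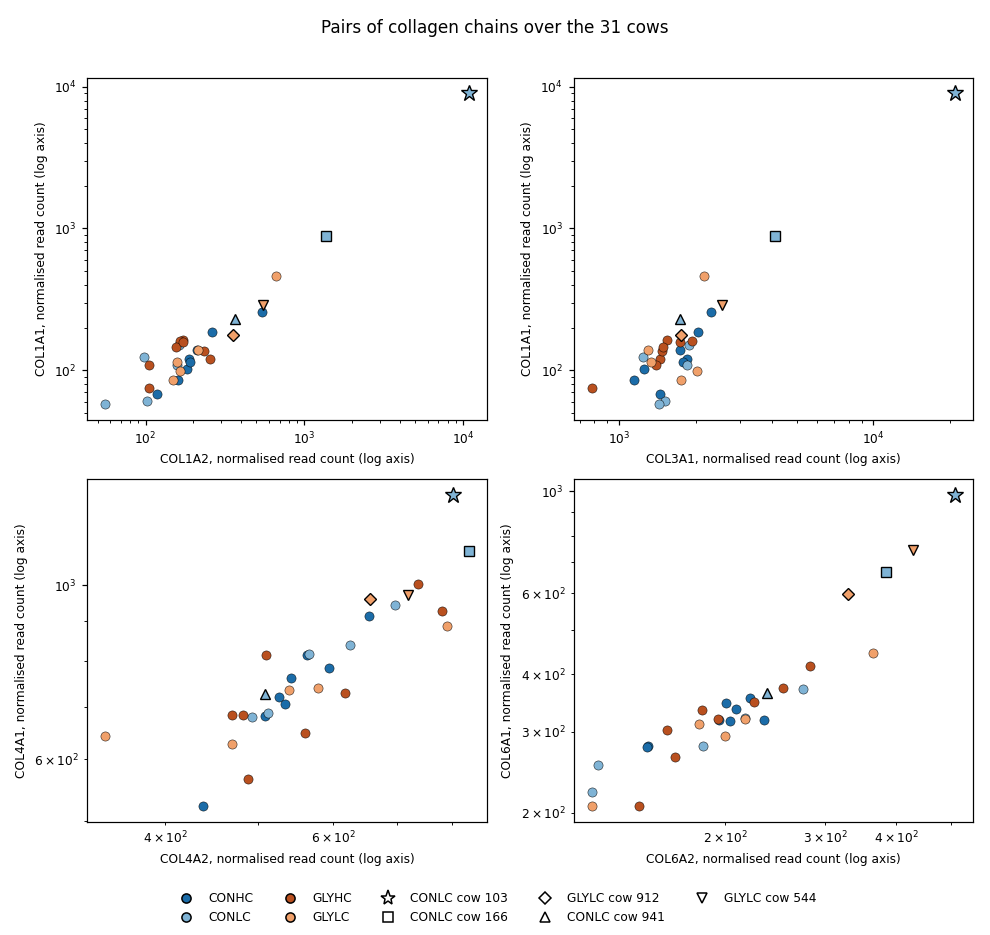
Normalised read counts of 4 pairs of collagen chains over the 31 cows on log axes, with colour for the group and other symbols for 5 named cows. COL1A1 follows COL1A2 over the 31 cows (Pearson r of 0.965), though less closely within GLYHC (0.546). COL4A1 follows COL4A2 within a narrow range (0.861). CONLC cow 103 lies at the far upper right for COL1A1 against COL1A2 and against COL3A1.

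The size of the deviation in cow 103 extended beyond type I. Of the 35 tested collagen genes, 17 were more than 2-fold and 8 more than 5-fold over the median of the other CONLC cows. These counts include genes near the floor, such as COL26A1 (3 reads, 5.28-fold) and COL20A1 (2 reads, 3.08-fold). The share of all genes beyond these folds was not computed. Cow 103 held the highest value of all 31 cows for 14 of the 35 collagen genes (40.0%) and for 594 of the 15916 genes tested (3.73%). Cow 166 was more than 2-fold over the other CONLC cows for 14 genes, among them COL1A2 at 8.78-fold, COL1A1 at 7.09-fold and COL15A1 at 9.50-fold. GLYLC cow 544 was so for 10 genes over the other GLYLC cows, and GLYLC cow 912 for 4, with COL15A1 at 27.3-fold. Genes with few reads were among them here too. Examples are COL9A3 with 4 reads and COL26A1 with 5 in cow 166, COL26A1 with 8 and COL20A1 with 3 in cow 544, and COL9A3 with 9 in cow 912.

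Marker lists of other cell types were read beside these values. The 8 genes of portal fibroblasts and myofibroblasts summed to 1388 to 2729 normalised counts in CONHC, 1376 to 4822 in CONLC, 1159 to 1973 in GLYHC and 1620 to 20988 in GLYLC, with cow 912 highest and cow 103 second. Cow 103 was the highest cow for only 2 of the 8 genes, THY1 (165) and FBLN1 (206, against a CONLC median of 23.9). The sum in cow 912 was mostly the smooth muscle myosin MYH11 at 15344. In the HC against LC comparison 5 of these 8 genes were lower in HC at an unadjusted p below 0.05, beside 7.81% of all genes. Of them 1 was called, beside 1.45% of all genes called in either direction. The 7 stellate cell genes summed to 3136 to 6839, 2564 to 10640, 2271 to 6184 and 3792 to 14061 in the same order of groups, with cows 912, 166 and 103 highest, in that order. Much of these sums was desmin (DES), which muscle also expresses, at 10602 of 14061 in cow 912 and 6204 of 10640 in cow 166. In cow 912 NGFR, at 1039, was the lowest of GLYLC, and RELN at 1433 and LRAT at 77.5 lay below the GLYLC medians.

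Markers of tissue outside the liver also varied. The 4 mesothelium genes of the liver capsule summed to between 33.6 and 297 over all cows. Cow 103 ranked 3 for this sum at 208, behind a GLYLC cow at 297 and cow 166 at 245. It was the highest cow for only 2 of the 4 genes, LRRN4 (50.4, against a CONLC median of 0.442) and WT1 (23.9, against 0.952). The 6 skeletal muscle genes summed to at most 35092 in CONHC, 69577 in CONLC, 39853 in GLYHC and 7138 in GLYLC, with cow 166 highest and cow 103 in 4th place. The 6 measured intestinal genes summed to 7971 in cow 912, where FABP2 was 4283 against a GLYLC median of 0. The sum was at most 1677 in any HC cow and at most 1227 in CONLC. Its medians were 898 in CONHC, 781 in CONLC, 1040 in GLYHC and 956 in GLYLC. In HC, 5 of these genes were lower at an unadjusted p below 0.05, beside 7.81% of all genes. Of them 4 were called, beside 1.45% of all genes called in either direction. How far these calls rest on cow 912 was not tested. The 4 skin genes had 3 higher in HC at an unadjusted p below 0.05, beside 5.88% of all genes, and 2 of them were called. Their sums averaged 66.0 ± 64.7 (SD, n = 8) in GLYHC, 16.5 ± 5.67 in CONHC, 16.4 ± 5.69 in CONLC and 19.4 ± 8.03 (SD, n = 7) in GLYLC. The medians of these sums were 15.5 in CONHC, 17.4 in CONLC, 30.3 in GLYHC and 15.9 in GLYLC. GLYHC was also the group with the highest mean of COL27A1, but a relation between the skin genes and COL27A1 by cow was not tested. At an unadjusted p below 0.05, 3 skin genes were higher in GLYHC than in GLYLC and 3 higher than in CONHC, beside 5.06% and 1.6% of all genes. None differed between CONHC and CONLC. The 9 hepatocyte genes summed to between 1778970 and 4155840, so each library carried the defining transcripts of liver. Their amount differed, however. Cow 912 had the lowest sum of the 31 cows, cow 166 ranked 29 at 2531180 and cow 103 ranked 17. The part of these other cells in the collagen values was not tested.

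Genes that make, cut, cross-link and bind collagen were taken from a list of 66, of which 60 were tested. In HC against LC none was called, with 8 lower and 3 higher at an unadjusted p below 0.05, and the median log2 fold change was -0.09. Of all genes 7.81% were lower and 5.88% higher at this threshold. By role the lower and higher genes were 2 and 1 of 14 for prolyl and lysyl modification, 1 and 1 of 7 for propeptide cleavage, 2 and 1 of 6 for cross-linking, 1 and 0 of 8 receptors and 2 and 0 of 11 profibrotic ligands and receptors. None of the 5 folding and export, 4 breakdown and 5 inhibitor genes passed.

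The lower genes with the smallest p were PDGFRA, a growth factor receptor of fibroblasts, at -0.40 ± 0.13 (edgeR adjusted p = 0.168), TGFB3, a profibrotic cytokine, at -0.74 ± 0.27 and PCOLCE2, an enhancer of propeptide cleavage, at -0.35 ± 0.13. The higher ones were PLOD3, a lysyl hydroxylase, at 0.21 ± 0.08, the transglutaminase TGM2 at 0.70 ± 0.31 and the propeptide protease ADAMTS14 at 0.24 ± 0.12. For TGM2 the group medians were 829 in CONHC, 341 in CONLC, 1085 in GLYHC and 391 in GLYLC. In GLY against CON the collagen chaperone SERPINH1 at -0.34 ± 0.14 and the matrix growth factor CTGF at -0.77 ± 0.37 were below 0.05 unadjusted (edgeR adjusted p = 1 for each), and both were highest in cow 103, at 597 and 739. Of the 63 genes of the list with a row in the table, 60 of them tested, 22 had their highest value in this cow. Among all genes the share was 3.73%, which covers tested genes only.

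As a description of likeness, the genes outside the family whose group-centred log2 CPM went most closely with COL1A1 over 31 cows, among 11804 genes compared, were MMP2 (r = 0.87), SPARC (0.87), THBS4 (0.85), HTRA1 (0.83) and SERPINH1 (0.80). Without the 3 cows these values were 0.72, 0.68, 0.64, 0.70 and 0.59. The gelatinase MMP2 was 1133 in cow 103 against a CONLC median of 199, and the collagen-binding glycoprotein SPARC 9938 against 1862. THBS4, a thrombospondin of matrix and tendon, was 1027 in cow 103 against 1.06.

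COL4A1 went most closely with LTBP2 (r = 0.78), THBS2 (0.76), PCDHGA8 (0.75), DCHS1 (0.74) and FMOD (0.74). Without the 3 cows the values were 0.69, 0.71, 0.69, 0.67 and 0.63. Cow 103 held the highest CONLC value of 4 of these genes, the exception being PCDHGA8. Within the family, COL1A1 was closest to COL1A2 (0.97) and COL3A1 (0.92), and COL4A1 to COL4A2 (0.86) and COL6A3 (0.84).

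Adjacent collagen genes could matter for reads at shared ends. In the RefSeq annotation of ARS-UCD2.0, a later build than that of the counts and used here for names and order only, 5 pairs of the measured genes are neighbours, namely COL4A1 with COL4A2, COL4A3 with COL4A4, COL4A5 with COL4A6, COL3A1 with COL5A2 and COL6A1 with COL6A2. Whether reads were counted by strand is not given in the sources used here. COL6A5, COL19A1, COL21A1 and COL24A1, which that annotation also holds, were not analysed here.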

How the data were processed

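Per the labels and the study's methods, quality control was by FastQC and trimming by Trim Galore. The authors mapped reads to the bovine genome UMD3.1 (HISAT2 2.1.0), and HTSeq 0.8.0 summed those with a unique position over Ensembl genes. The deposited raw counts of 31 libraries (11675775 to 36675542 reads) were used. The authors' DESeq2-normalised table was not used.

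Genes with at least 20 reads were fitted with edgeR 4.0.16 (R 4.3.3), using TMM normalisation and the quasi-likelihood test, in a 4-group model for pairwise contrasts and interaction and an additive model for HC against LC and GLY against CON. The pipeline was tested on simulated data. Correlations used log2 CPM with a prior count of 2 and two-sided permutation tests with 100000 resamples, exact within groups. Alternatives were other normalisations and filters, DESeq2 1.42.0, a robust fit, pairs of groups and leaving out cows.

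Genes named were the 14 collagens with most reads, those at an unadjusted p below 0.05 in any of 7 contrasts, at most 3 partner genes a direction, and the 5 genes most like COL1A1 and COL4A1. The members and lists were chosen with earlier results of these data known. Pairs of cows within groups differed beyond counting noise, with a chi-square per gene of 24.5 to 487 over 105 pairs.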

Additional observations from a re-analysis of the deposited data

Results flagged for a closer look

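A Dixon test for a cow far from the rest of its group was applied to 82 sets of gene and group, over the 21 collagen genes named by abundance or unadjusted p. It marked 18 values, 9 of them in CONLC cow 103. The nominal rate of 1 in 20 sets assumes normally distributed values, which read counts need not be. Some genes were also taken in by an unadjusted p to which these cows contributed. The 18 marks are therefore a description and are not weighed against that rate. COL2A1 in CONLC was marked by construction, since the other cows had no read. The sets are not independent, since chains share cows.

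The values of cow 103 were 20972 for COL3A1, 10852 for COL1A2, 9027 for COL1A1, 1915 for COL12A1, 1324 for COL6A3, 1100 for COL5A2, 370 for COL5A1, 341 for COL6A6 and 138 for COL16A1, all as normalised read counts and all the highest of CONLC. In the same group cow 941 stood apart for COL2A1 at 32.7.

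In GLYLC, cow 912 stood apart for COL15A1 at 497 and COL2A1 at 3.04, and cow 544 for COL14A1 at 1063 and COL5A3 at 120. In GLYHC, cow 127 was high for COL15A1 at 50.7 and cow 117 low for COL3A1 at 783. In CONHC, cow 133 was high for COL1A2 at 541 and cow 208 low for COL5A1 at 38.9. The cause of these values was not tested.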

How the results depend on the processing

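No paired analysis was possible because the cows of different groups carry no shared numbers. The cause of the shifts below was not tested.

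Called collagen genes stayed at 0 in all 7 contrasts under every alternative except when 1 cow was left out for HC against LC, where the count ran from 0 to 3. These were COL1A2 and COL12A1 without CONLC cow 169, and COL1A2, COL12A1 and COL6A3 without CONLC cow 260 (COL6A3 at -0.48). The normalisation, the robust fit and the stricter filter left the number of genes at an unadjusted p below 0.05 within 1.5 times in every contrast. Including all genes with at least 1 read took the interaction from 1 to 2.

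That number depended on cows. Without CONLC cow 103 it became 2 for CONHC against CONLC (8 with all cows), 5 for GLYHC against GLYLC (2), 0 for GLYLC against CONLC (4), 0 for the interaction (1), 9 for HC against LC (15) and 0 for GLY against CON (3). Without the 3 cows it was 2, 5, 2, 2, 3 and 1 in the same order, and 2 for GLYHC against CONHC (1). Leaving out each cow in turn gave 2 to 15 (15 without CONLC cow 260), 1 to 5, 0 to 6, 0 to 2, 9 to 17 and 0 to 6 (6 without the same cow), and 0 to 2 for GLYHC against CONHC. Without GLYLC cow 912 it was 1 for GLYHC against GLYLC. With only the compared groups in the fit it was 6 for GLYHC against GLYLC and 2 for GLYHC against CONHC. DESeq2, which replaced the counts of cow 103 for COL1A1, COL1A2 and COL3A1 and of cow 941 for COL2A1, gave 5 for CONHC against CONLC, 1 for GLYLC against CONLC, 0 for the interaction and 0 for GLY against CON.

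Signs turned as follows, none in a called gene. The fits without the 3 cows leave out LC cows only, picked after their values had been seen. In GLY against CON without cow 103, COL4A2 was at 0.03, COL6A3 at 0.011 and COL6A1 at 0.12. Without the 3 cows COL4A1 was at 0.0089, COL1A2 at 0.19, COL4A2 at 0.060, COL1A1 at 0.30, COL6A1 at 0.16 and COL8A1 at -0.0066. COL8A1 was at -0.012 without cow 912. Leaving out single cows gave -0.012 to 0.14 for COL14A1, -0.042 to 0.045 for COL4A2, -0.18 to 0.011 for COL6A3, -0.034 to 0.058 for COL8A1, -0.11 to 0.12 for COL6A1 and -0.034 to 0.14 for COL6A2. In CONHC against CONLC without the 3 cows, COL1A1 was at 0.14, COL1A2 at 0.56, COL3A1 at 0.074 and COL5A2 at 0.10, and DESeq2 gave 0.33 for COL2A1. In GLYLC against CONLC without the 3 cows, COL1A1 was at 0.70, COL1A2 at 1.0, COL12A1 at 0.084 and COL3A1 at 0.20, and DESeq2 gave 0.035 for COL1A2. Without the 3 cows the interaction of COL1A1 was at -0.71 and HC against LC of COL16A1 at 0.022. The r of COL1A1 with COL4A1 and COL14A1 was 0.330 and 0.166 without cows 103 and 166. Chains with few reads, such as COL17A1 with 22, were measured with wide errors.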
